A study of Homo sapiens with 4 samples.

Results

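The transcripts of the erythropoietin receptor EPOR, the stem cell factor receptor KIT, the receptor-bound kinase JAK2, the feedback inhibitors CISH, SOCS1, SOCS2 and SOCS3, and the kinases PIM1, PIM2 and PIM3 were examined after treatment of leukemia cells with the BET degrader dBET1. These 10 genes were taken from the 64252 Ensembl genes of the count table by matching identifiers to symbols, and all 10 were found. Cells labelled NB4 were treated with 8 μM dBET1 for 24 h (2 libraries) or with an equal volume of its solvent DMSO for 24 h (2 libraries), and RNA was sequenced. dBET1 couples a BET bromodomain ligand to one that binds CRBN, an adaptor of an E3 ubiquitin ligase, and BET proteins are chromatin readers that support transcription. No genotype or further agent separates the groups in the labels, both groups are from a single line, and the labels do not tell whether the libraries of a group came from separate cultures. The methods of the study speak in general of triplicates and independent repeats, which cannot be matched to 2 libraries in a group. The p-values therefore measure the spread between these libraries, which may be technical.

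EPOR has no enzyme activity of its own and signals through JAK2, which phosphorylates STAT5, while KIT is a receptor tyrosine kinase of class III. STAT5 is known to induce CISH, the SOCS genes and PIM1. CISH and the SOCS proteins bind activated receptors or JAKs and dampen the signal, and the PIM proteins are serine/threonine kinases without a regulatory domain, so that their activity follows their abundance. In the bone marrow, KIT marks stem cells, early progenitors and mast cells and is lost as red cell precursors mature, whereas EPOR is needed for the survival of these precursors.

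The libraries held 28019956 to 34685645 counts. The conditions were compared over 17971 genes, and counts are given below as CPM, the count of a gene per 1000000 counts of its library after TMM scaling. NB4 is known as a promyelocytic line, but in the libraries labelled NB4 the neutrophil and promyelocyte markers ELANE and CTSG had 0 counts throughout, and MPO had 0 counts with DMSO. The 7 genes of that marker list summed to 11.5 and 13.1 CPM with DMSO, mostly from CD33 at 9.90 and 11.9 CPM. AZU1 had 14 and 14 counts with DMSO, CEBPE 36 and 17, and PRTN3 3 and 1. With dBET1, MPO had 22 and 10 counts and was called higher (adjusted p = 0.00459, edgeR). MPO entered the test through these dBET1 counts alone. The 8 erythroid markers, among them GATA1, KLF1 and the globin genes HBG1 and HBG2, summed to 5236 and 6367 CPM with DMSO and to 3136 and 3081 CPM with dBET1. All 8 were lower with dBET1 at an adjusted p below 0.05, as were 27.6% of all genes tested. The part of these markers in the results on KIT and EPOR was not tested. In bulk RNA, fewer cells of a type and less RNA per cell cannot be told apart.

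Of the 10 genes, SOCS3 rose and KIT fell past both thresholds of the comparison, an adjusted p below 0.05 together with a log2 fold change beyond 1 in size. Of all genes tested, 16.9% were called higher and 8.54% lower in this way. By the adjusted p alone, 4 of the 10 rose (CISH, SOCS1, SOCS2 and SOCS3), 2 fell (KIT and PIM1) and 4 did not pass (EPOR, JAK2, PIM2 and PIM3), whereas 28.0% of all genes rose and 27.6% fell. The CPM values of the DMSO and dBET1 libraries did not overlap for 9 of the 10 genes, against 79.3% of all genes, so that separation of the groups was common in this comparison. The median log2 fold change was -0.030 over the 10 genes and 0.048 over all genes. Thus the inhibitor genes were higher and KIT was far lower, while EPOR, JAK2 and the PIM genes had smaller estimated changes. Of the latter, only PIM1 passed by the adjusted p.

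**Figure D1:**
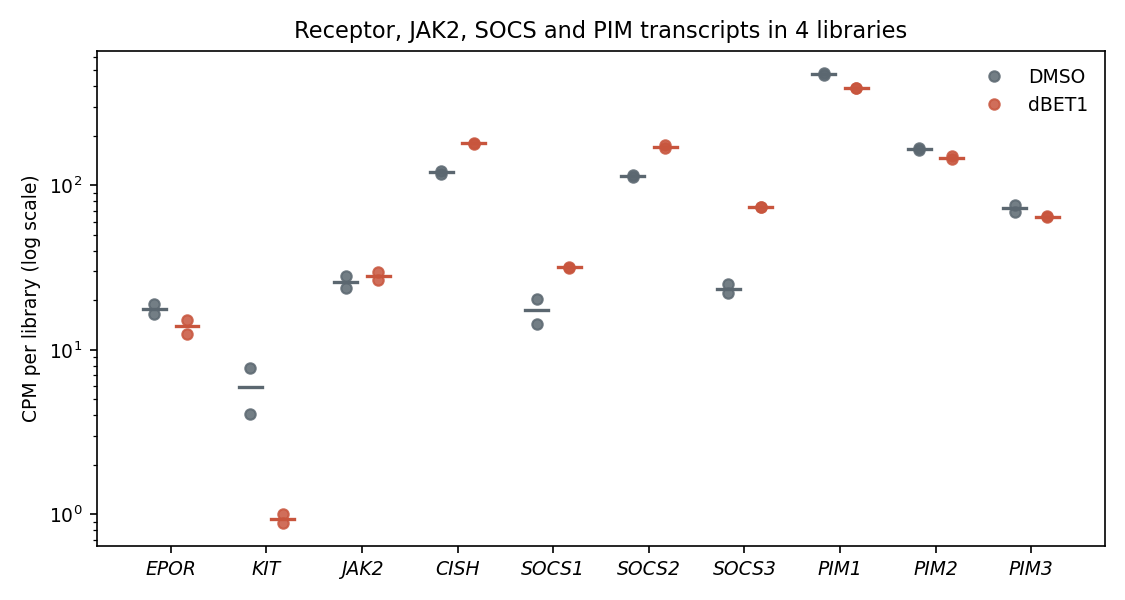
CPM of the 10 transcripts in each library on a log scale, DMSO in grey and dBET1 in red, with each point 1 library and each bar the mean of 2. KIT with dBET1 lies at 1.00 and 0.884 CPM, under both DMSO libraries, and the 4 inhibitor genes lie higher with dBET1.

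KIT (ENSG00000157404, chromosome 4, 54657267 to 54740783, plus strand, hg38) had the widest change of the 10. It was counted 255 and 114 times with DMSO but 30 and 27 times with dBET1, that is 7.81 and 4.06 CPM against 1.00 and 0.884 CPM. Both dBET1 libraries lay below both DMSO libraries, while the DMSO libraries differed from each other 1.93-fold. The mean fell from 5.94 ± 2.66 CPM (SD, n = 2) to 0.942 ± 0.0814 CPM (SD, n = 2), with a log2 fold change of -2.65 ± 0.374 (SE) and an adjusted p of 0.000707 (quasi-likelihood test of edgeR, adjusted by the Benjamini-Hochberg method). The level with dBET1 was 0.159 of that with DMSO, with a 95% interval of 0.0870 to 0.290. Without DMSO replicate 1 the log2 fold change was -2.13, and without DMSO replicate 2 it was -3.08. The gap between the DMSO libraries ran with transcript length, since the median log2 ratio of replicate 1 to replicate 2 was -0.13 over 1907 genes with a longest transcript under 2 kb and 0.13 over 3272 genes of 5 kb or more. KIT, whose transcript is in the longest class, had a ratio of 0.95 on this scale, and the part of length in its gap was not tested.

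EPOR (ENSG00000187266, chromosome 19, 11377207 to 11384342, minus strand) was lower in both dBET1 libraries, but the fall did not pass. It had 541 and 532 counts with DMSO and 376 and 465 with dBET1, which gave 16.6 and 18.9 CPM against 12.5 and 15.2 CPM. The groups did not overlap, but the higher dBET1 library was close to the lower DMSO library. The log2 fold change was -0.35 ± 0.156 (SE), with a 95% interval of -0.72 to 0.0066 and an adjusted p of 0.0865 (edgeR, Benjamini-Hochberg), which did not pass. Without DMSO replicate 1 it was -0.47 and passed, with an adjusted p of 0.0354 (edgeR). In such a fit the lone DMSO library is assumed to vary like the dBET1 pair. Over all genes this was the closer pair, but for EPOR it was the wider one. The log2 ratio of EPOR in replicate 1 to replicate 2 was -0.28 with dBET1 and -0.19 with DMSO. The SE was 0.169 in that fit, against 0.156 with all 4 libraries. The neighbouring gene RGL3 shares 2 exonic bases with EPOR and had at most 5 counts in a library.

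The EPOR promoter is shown for its match to a binding motif of GATA factors, the regulators known to act at erythroid genes. Promoter windows ran from 250 bases before to 50 bases after each RefSeq start (GRCh38.p14), and 9 of the 10 genes had at least 1 window, SOCS2 being the exception. AGATAA or TGATAA, searched on both strands, was found for 1 of these genes, EPOR, whereas 19.4% of all 27305 genes with a window held it (16.3% of all 35116 windows). The stretch below is chr19:11384375-11384404 on the minus strand, which also lies in an annotated exon of RGL3, and the capitals mark the match, read here in reverse complement.
EPOR promoter: cccgccaggcacTTATCTctacccaggctg

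JAK2 (ENSG00000096968, chromosome 9, 4984390 to 5129948, plus strand), the kinase bound to EPOR and to several other cytokine receptors, was the only one of the 10 genes whose groups overlapped. It had 918 and 672 counts with DMSO and 887 and 811 with dBET1, corresponding to 28.1 and 23.9 CPM against 29.6 and 26.6 CPM. The log2 fold change was 0.11 ± 0.125 (SE), with a 95% interval of -0.18 to 0.40 and an adjusted p of 0.492 (edgeR, Benjamini-Hochberg). The interval spans both directions, so neither a rise nor a fall within it was shown or excluded. INSL6, which overlaps JAK2 on the opposite strand, had 0 counts in the 4 libraries.

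CISH, SOCS1, SOCS2 and SOCS3, whose products bind phosphotyrosine through an SH2 domain and recruit a ubiquitin ligase through a SOCS box, rose together. SOCS3 (ENSG00000184557, chromosome 17, 78356778 to 78360077, minus strand), which inhibits JAKs at gp130-type receptors, rose most of the 4. Its counts were 720 and 703 with DMSO and 2205 and 2260 with dBET1, or 22.1 and 25.0 CPM against 73.5 and 74.0 CPM. The groups were far apart and the libraries of each group close together. The mean rose from 23.5 ± 2.09 CPM to 73.8 ± 0.399 CPM (SD, n = 2 each), with a log2 fold change of 1.65 ± 0.0993 (SE) and an adjusted p of 1.6e-05 (edgeR, Benjamini-Hochberg). This was a 3.13-fold increase, with a 95% interval of 2.67 to 3.68. The divergent transcript SOCS3-DT starts 299 bases from SOCS3 and had 5 to 9 counts in each library.

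SOCS1 (ENSG00000185338, chromosome 16, 11254417 to 11256204, minus strand), which blocks JAK catalytic activity directly, had 468 and 576 counts with DMSO and 961 and 967 with dBET1. The CPM values were 14.3 and 20.5 against 32.0 and 31.7, so that the groups were separate but the DMSO libraries differed more than the dBET1 libraries. The log2 ratio of DMSO replicate 1 to replicate 2 was -0.52 for SOCS1, whose longest transcript has 1784 bases. Over genes with transcripts under 2 kb the median was -0.13, and the part of length in the gap of SOCS1 was not tested. The log2 fold change was 0.87 ± 0.169 (SE) with an adjusted p of 0.00328 (edgeR, Benjamini-Hochberg), and it was 0.61 without DMSO replicate 1 and 1.12 without DMSO replicate 2, where SOCS1 passed both thresholds. SOCS1 lies within RMI2, a gene of DNA repair on the opposite strand, with which it shares 0 exonic bases. RMI2 rose from 24.8 ± 2.15 to 47.0 ± 4.44 CPM (SD, n = 2 each), with a log2 fold change of 0.92 and an adjusted p of 0.000389 (edgeR). The strand setting of the counting is not stated, so reads from the pair could not be assigned with certainty.

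CISH (ENSG00000114737, chromosome 3, 50606489 to 50611774, minus strand), a STAT5 target that acts on EPOR and related receptors, had 3842 and 3437 counts with DMSO and 5448 and 5443 with dBET1. This gave 118 and 122 CPM against 182 and 178 CPM, with narrow and separate groups. Its log2 fold change was 0.58 ± 0.0727 (SE), a 1.50-fold increase, with an adjusted p of 0.000376 (edgeR, Benjamini-Hochberg). MAPKAPK3, a kinase gene on the opposite strand, shares 218 exonic bases with CISH. It moved the other way, from 86.4 ± 4.01 to 49.5 ± 0.384 CPM (SD, n = 2 each), with a log2 fold change of -0.80 and an adjusted p of 0.000166 (edgeR).

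The CISH promoter is shown because it alone, among the 9 genes with a window, held the STAT motif TTCNNNGAA, which reads the same on both strands. It held 4 matches, at 241, 230, 129 and 112 bases before the start. Of all 27305 genes, 9.38% held the motif in a window. Of all 35116 windows, 7.66% held at least 1 match, 0.456% at least 2 and 0.0199% (7 windows) at least 4. With 4 bases between the TTC and GAA parts, the motif was in 0 of the 9 genes and in 7.80% of all genes. The stretches below are chr3:50611991-50612020 and chr3:50611876-50611905, both on the minus strand and both within MAPKAPK3 on the other strand, and the capitals mark the matches.
CISH promoter, upper pair: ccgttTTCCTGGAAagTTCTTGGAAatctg
CISH promoter, lower pair: ggTTCTAGGAAgacgctgcTTCCGGGAAgg

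SOCS2 (ENSG00000120833, chromosome 12, 93569814 to 93583487, plus strand), known for restraining growth hormone signalling, had 3773 and 3169 counts with DMSO and 5064 and 5361 with dBET1. In CPM these were 116 and 113 against 169 and 176, again without overlap. The log2 fold change was 0.59 ± 0.0735 (SE), a 1.51-fold increase, with an adjusted p of 0.000370 (edgeR, Benjamini-Hochberg). The antisense gene SOCS2-AS1 shares 277 exonic bases with SOCS2 and rose from 6.01 ± 0.0417 to 18.4 ± 0.969 CPM (SD, n = 2 each), with a log2 fold change of 1.62 and an adjusted p of 9.51e-05 (edgeR). As the counts may be unstranded, the rise of SOCS2 and that of its antisense partner could not be separated fully.

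**Figure D2:**
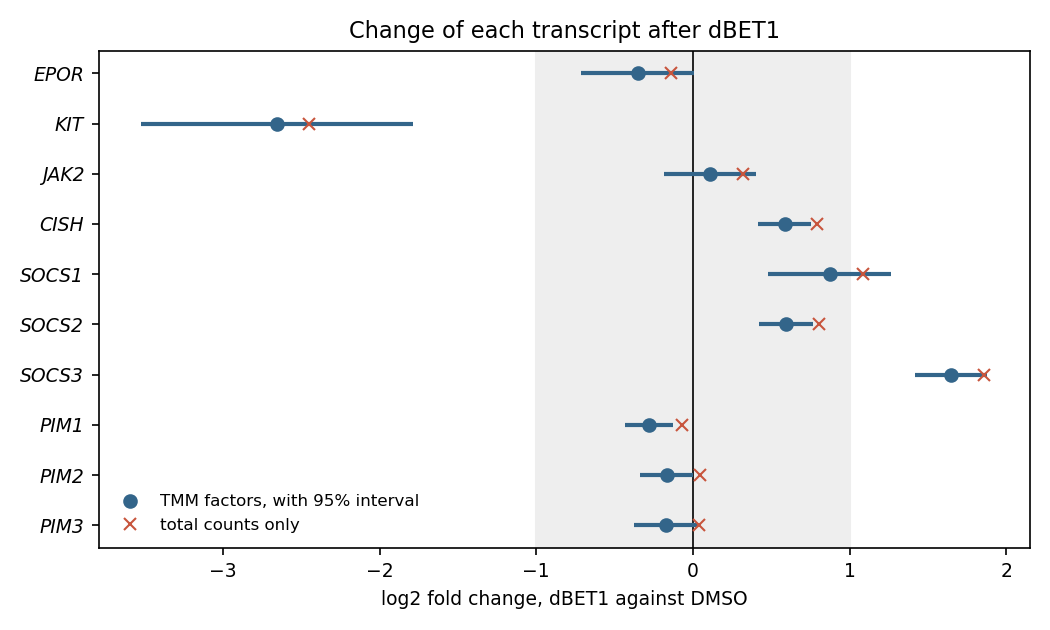
Log2 fold change of each transcript, dBET1 against DMSO, with its 95% interval (blue) and the value when only total counts were used for scaling (red cross); the grey band marks changes within 1 log2 unit. KIT at -2.65 and SOCS3 at 1.65 lie outside the band, and PIM2 and PIM3 change sign with the scaling.

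PIM1 (ENSG00000137193, chromosome 6, 37170152 to 37175428, plus strand), a STAT5 target that supports survival, was the most abundant of the 10 transcripts. It had 15347 and 13505 counts with DMSO and 11784 and 11944 with dBET1, or 470.3 and 481 CPM against 393 and 391 CPM. The dBET1 libraries were lower than both DMSO libraries by a small margin. The log2 fold change was -0.28 ± 0.0663 (SE), a ratio of 0.824, with an adjusted p of 0.00862 (edgeR, Benjamini-Hochberg). When libraries were scaled by total counts only, the value was -0.068 with an adjusted p of 0.404 (edgeR), so the call depended on the scaling. It was also lost without dBET1 replicate 1 (-0.29, adjusted p = 0.113, edgeR) and without dBET1 replicate 2 (-0.29, adjusted p = 0.108, edgeR). In these fits the spread came from the DMSO pair alone, and the SE rose from 0.0663 to 0.135 and 0.136 while the fold change hardly moved.

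PIM2 (ENSG00000102096, chromosome X, 48913182 to 48919024, minus strand) was counted 5322 and 4733 times with DMSO and 4332 and 4601 times with dBET1, giving 163 and 168 CPM against 144 and 151 CPM. PIM3 (ENSG00000198355, chromosome 22, 49960768 to 49964072, plus strand) was counted 2251 and 2150 times with DMSO and 1920 and 1990 times with dBET1, giving 69.0 and 76.5 CPM against 64.0 and 65.2 CPM. Neither gene passed, although the groups of each were separate. The log2 fold change of PIM2 was -0.17 ± 0.0732 (SE), with a 95% interval of -0.34 to 0.0020 and an adjusted p of 0.0848 (edgeR, Benjamini-Hochberg). That of PIM3 was -0.17 ± 0.0889 (SE), with an interval of -0.38 to 0.035 and an adjusted p of 0.136 (edgeR, Benjamini-Hochberg). With total counts only both values were positive, at 0.042 and 0.040, whereas that scaling shifted the median over all genes from 0.048 to 0.26. The 3 PIM genes were below the median gene under either scaling, but a change of scaling shifts all genes by nearly the same amount. Their place relative to the median is therefore no check on the scaling. PIM2 and PIM3 passed as lower without DMSO replicate 1, with adjusted p values of 0.0116 and 0.00875 (edgeR), and PIM2 also without DMSO replicate 2, with 0.0323 (edgeR). The spread in these fits came from the dBET1 pair alone, so they carry less weight than the fit of all 4 libraries.

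Levels of different genes were compared per length, as CPM per kb of annotated exon. With DMSO the order was PIM1 at 157 ± 2.39, PIM2 at 60.0 ± 1.36, PIM3 at 33.1 ± 2.42, CISH at 23.7 ± 0.638 and SOCS2 at 17.6 ± 0.312 CPM per kb (SD, n = 2). SOCS1 at 9.74 ± 2.43 and SOCS3 at 8.61 ± 0.763 CPM per kb followed and did not differ beyond their spread. EPOR at 5.77 ± 0.540, JAK2 at 3.29 ± 0.377 and KIT at 0.524 ± 0.235 CPM per kb were lowest. Hence the PIM genes were among the most abundant transcripts of these cells, with PIM1 at the 98.4th percentile of tested genes per length, and KIT was at the 24.4th. The order depends on the length used, since with the longest transcript in place of all exons SOCS2, at 30.6 CPM per kb, came above CISH.

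With dBET1 the levels per length were 129 ± 0.320 CPM per kb for PIM1, 53.4 ± 1.63 for PIM2, 35.6 ± 0.451 for CISH and 29.4 ± 0.391 for PIM3 (SD, n = 2). CISH thus moved above PIM3 in the order. SOCS3 at 27.0 ± 0.146 and SOCS2 at 26.6 ± 0.752 CPM per kb did not differ beyond their spread on this length, and SOCS1 was at 17.8 ± 0.136. With the longest transcript as length, SOCS2 was at 46.1 and SOCS3 at 27.0 CPM per kb, and SOCS2 was then also above CISH at 35.7. EPOR was at 4.51 ± 0.621, JAK2 at 3.55 ± 0.267 and KIT at 0.0832 ± 0.00719 CPM per kb, the last at the 2.42nd percentile of tested genes.

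The summed level of CISH and SOCS1 to SOCS3 per length was 57.2 and 62.2 CPM per kb with DMSO and 107 and 107 CPM per kb with dBET1, a 1.79-fold difference of the means. SOCS3 took 14.4 ± 0.428% of this sum with DMSO and 25.2 ± 0.0629% with dBET1 (SD, n = 2), whereas CISH took 39.8 ± 1.28% and 33.3 ± 0.518%, and SOCS2 29.6 ± 2.27% and 24.9 ± 0.631%. SOCS3 thus made up more of the inhibitor sum with dBET1. The PIM sum went from 246 and 254 to 211 and 213 CPM per kb with a similar make-up, PIM1 holding 62.8 ± 0.594% and 61.0 ± 0.641%. JAK2 was a minor JAK transcript, at 14.1% and 11.6% of the JAK sum with DMSO and 10.4% and 8.78% with dBET1, behind TYK2 and JAK1. These shares were not tested, and they use all annotated exons as length. With the longest transcript as length, SOCS2 was at 30.6 CPM per kb with DMSO and 46.1 with dBET1. CISH was then at 23.8 and 35.7, so the order of these shares depends on the length.

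**Figure D3:**
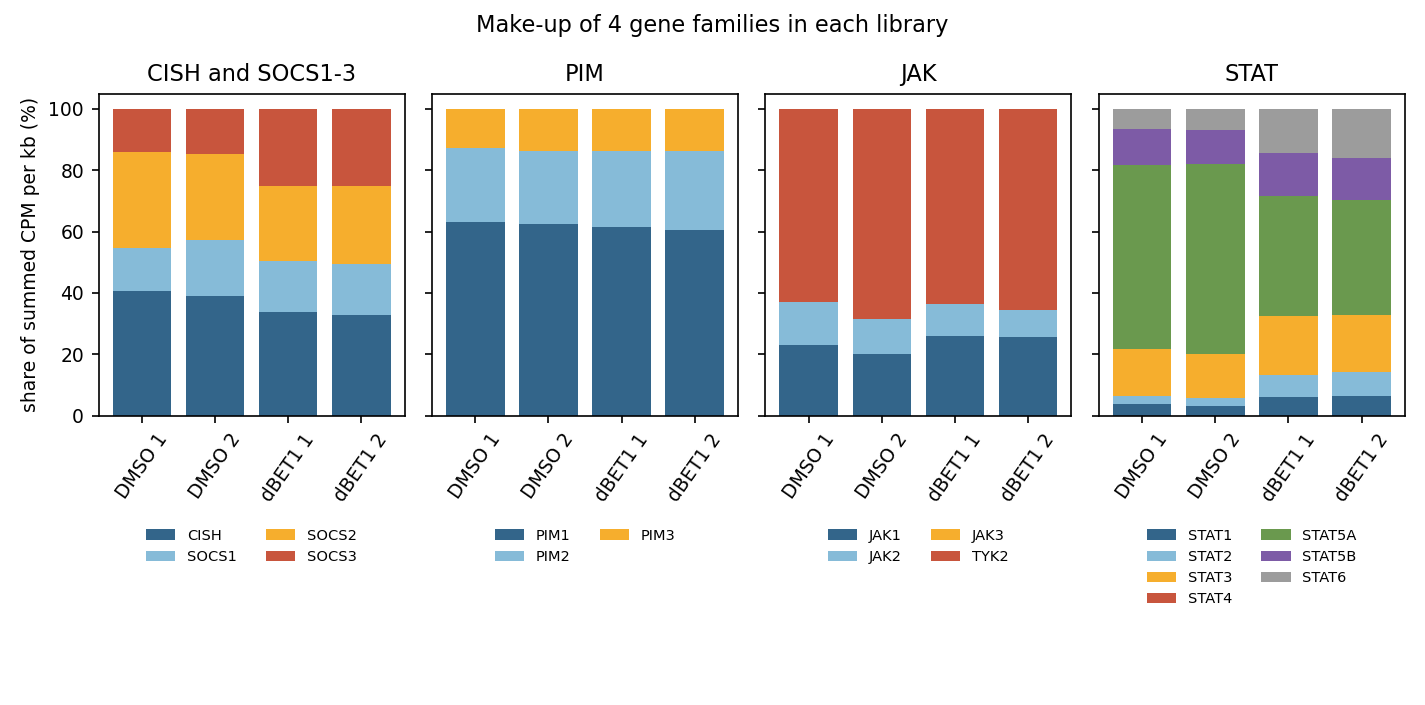
Share of each gene in the summed CPM per kb of its family, in percent, for each of the 4 libraries. The SOCS3 share is near 14.4% with DMSO and near 25.2% with dBET1, PIM1 holds most of the PIM sum throughout, and STAT5A is the leading STAT transcript.

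The other JAK and STAT genes were measured as well. All 8 of the tested ones changed by the adjusted p, 5 higher and 3 lower (5 and 1 with total counts only). For this list and the lists below, the shares over all genes were 28.0% higher and 27.6% lower by the adjusted p. Past both thresholds these shares were 16.9% and 8.54%. STAT5A, the main STAT downstream of EPOR and JAK2 in this list by abundance, was at 517 and 546 CPM with DMSO and at 231 and 230 CPM with dBET1. Its log2 fold change was -1.20, with an adjusted p of 1.51e-05 (edgeR, Benjamini-Hochberg). STAT5B went from 191 to 158 CPM on average (log2 fold change -0.27, adjusted p = 0.0139, edgeR), but it was at -0.061 with total counts only and did not pass there. The STAT5A and STAT5B sequences are close to identical in large part and may share reads, and their sum was 710 and 735 CPM with DMSO and 386 and 392 CPM with dBET1. STAT2, which acts in interferon signalling, rose from 32.4 ± 1.48 to 67.0 ± 4.62 CPM (SD, n = 2 each), with a log2 fold change of 1.05 and an adjusted p of 8.85e-05 (edgeR).

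Among 27 other cytokine receptor genes, 18 were tested, and their median log2 fold change was 0.69. By the adjusted p 11 rose and 2 fell (13 and 2 with total counts only), and 5 rose and 1 fell past both thresholds. The 5 were IL6R, IL2RB, IL3RA, IL4R and IL5RA, most of them at low levels. With DMSO, IL2RB had 10 and 4 counts, IL3RA 5 and 7, and IL5RA 2 and 4. With dBET1 these were 44 and 36, 27 and 35, and 10 and 15. IL2RB, IL3RA and IL5RA entered the test through their dBET1 counts, and genes that low in both groups were not tested. Their rises are therefore not independent of the count filter. Nor are the counts of risen genes and the median of this list, which include them. IL6R rose from 0.560 ± 0.0125 to 4.93 ± 0.758 CPM (SD, n = 2 each), with a log2 fold change of 3.13 and an adjusted p of 0.000104 (edgeR). The leptin receptor gene LEPR fell from 84.4 ± 14.8 to 36.0 ± 4.03 CPM (SD, n = 2 each), with a log2 fold change of -1.23 and an adjusted p of 0.000228 (edgeR). Of the 4 other class III receptor kinases, CSF1R was the one tested, and it rose from 0.117 to 0.480 CPM on average (log2 fold change 2.01, adjusted p = 0.0256, edgeR). It had 3 and 4 counts with DMSO and 17 and 12 with dBET1. CSF1R thus entered the test only through its dBET1 counts, and its rise is not independent of the count filter. The ligands of EPOR and KIT were near 0, with 0 to 7 counts of EPO and 0 to 5 counts of KITLG in a library. Of 5 tested ligand genes, LIF fell (log2 fold change -2.54, adjusted p = 0.00237, edgeR) and 4 did not pass.

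The remaining negative regulators moved in both directions, and the split depended on the scaling. Of 18 tested, 2 rose and 8 fell by the adjusted p (6 and 4 with total counts only), none passed both thresholds, and the median log2 fold change was -0.19. The 2 were SOCS7 (0.99) and the ubiquitin ligase gene CBL (0.76), and among those that fell were ELOC (-0.99) and ELOB (-0.65), which encode elongins that bind the SOCS box. CUL5 (-0.16, adjusted p = 0.312, edgeR) and RNF7 (-0.22, adjusted p = 0.122, edgeR), from the same list, did not pass. All of these genes were named after their values were seen.

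Further genes known as STAT5 targets moved in both directions. Of 11 tested, 5 rose and 4 fell by the adjusted p (5 and 3 with total counts only), with a median log2 fold change of -0.017. BCL6, a repressor that STAT5 is known to hold down, rose from 3.82 ± 0.669 to 275 ± 5.45 CPM, with a log2 fold change of 6.16. CCND1, which encodes cyclin D1, fell from 118 ± 3.87 to 42.7 ± 2.24 CPM (SD, n = 2 each), with a log2 fold change of -1.46 and an adjusted p of 1.55e-05 (edgeR). The survival gene BCL2L1, named after its value was seen, was at 178 and 176 CPM on average with a log2 fold change of -0.017 and an adjusted p of 0.861 (edgeR).

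Of 14 receptor adaptors and effectors, 3 rose and 4 fell by the adjusted p (6 and 1 with total counts only), and IRS2, an adaptor of insulin and cytokine receptors, passed both thresholds (12.9 ± 1.10 to 27.3 ± 0.188 CPM, log2 fold change 1.07, adjusted p = 0.000280, edgeR). Of 8 genes whose products PIM kinases are known to phosphorylate, 2 rose and 3 fell, all 5 past both thresholds (4 rose and 3 fell by the adjusted p with total counts only). The cell cycle inhibitor gene CDKN1A rose with a log2 fold change of 3.21 and FOXO3 with 1.39, while AKT1S1 fell with -1.48, CDC25A with -1.23 and EIF4EBP1 with -1.19. The list of 6 known regulators of KIT held GATA1 and GATA2, their partners TAL1, LMO2 and LDB1, and the mast cell and melanocyte factor MITF. By the adjusted p 4 of the 6 fell and 2 did not pass, where 27.6% of all genes fell. Their median was -0.37, and with total counts only 3 fell and 1 rose. LMO2 fell from 47.7 ± 1.22 to 9.36 ± 1.75 CPM (log2 fold change -2.35, adjusted p = 1.78e-05, edgeR) and LDB1 from 263 ± 6.32 to 125 ± 1.38 CPM (SD, n = 2 each), with a log2 fold change of -1.08. GATA1 fell with a log2 fold change of -0.50 and an adjusted p of 0.00185 (edgeR). Counted once each, 89 of the 110 genes of these lists were tested, of which 29 rose, 29 fell and 31 did not pass. Their median log2 fold change was 0.043, against 0.048 over all genes.

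**Figure D4:**
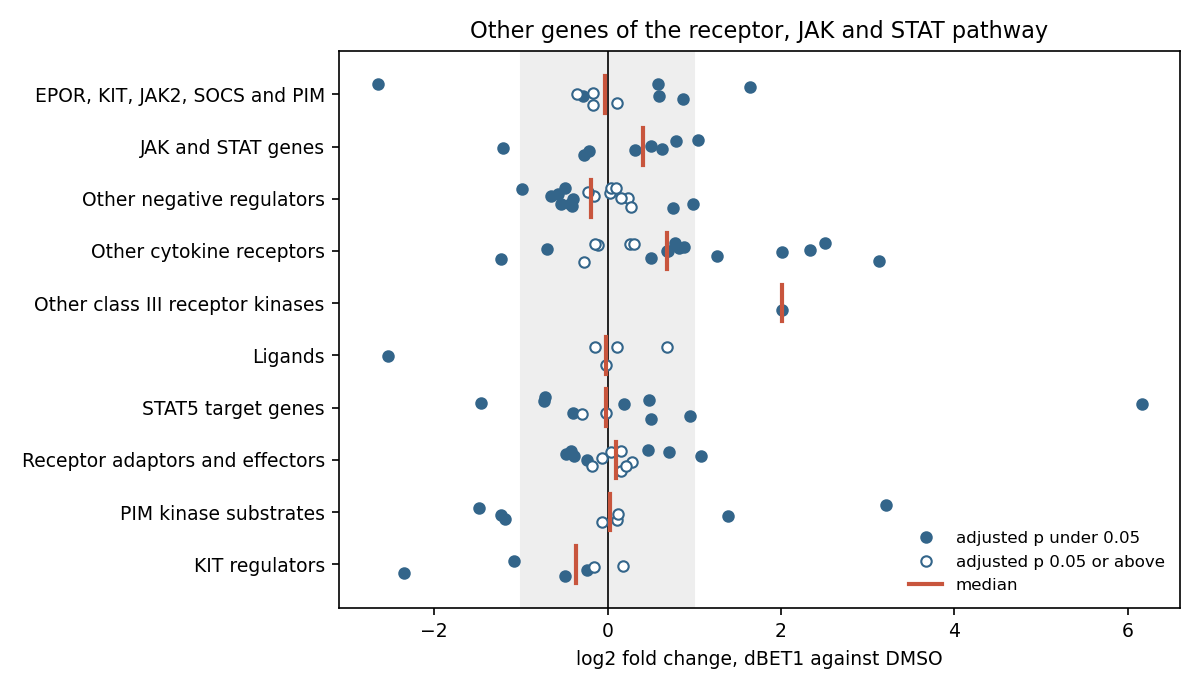
Log2 fold change of each tested gene, dBET1 against DMSO, by gene list, with filled points at an adjusted p under 0.05 and red bars at the list medians. The 10 genes center at -0.030, the other cytokine receptors at 0.69 and the other negative regulators at -0.19. The receptor median includes IL2RB, IL3RA and IL5RA, which entered the test through their dBET1 counts.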

How the data were processed

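RNA libraries of 2 DMSO and 2 dBET1 samples were made with a TruSeq kit and read as paired ends. Per the labels and the methods of the study, the authors aligned reads to hg38 with HISAT2 2.2.0 and used StringTie for transcript assembly and abundance. The deposited values are whole-number counts per Ensembl gene, not normalized; the step from StringTie abundances to whole counts and its strand setting are not given in the sources used here. Columns headed NC were taken as the DMSO samples, the only controls (0 columns left out, 0 rows without a gene name).

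Symbols and coordinates came from GENCODE 44, which held 56105 of 64252 identifiers. Identifiers without a symbol held 2.57% of counts. Counts were filtered with filterByExpr, scaled with TMM factors (0.918 to 1.08) and compared by the quasi-likelihood test of edgeR 4.0.16 in R 4.3.3, with Benjamini-Hochberg adjustment over 17971 genes. The biological coefficient of variation was 0.123. Replicates differed by more than sampling noise (chi-square per degree of freedom 23.6 for DMSO and 8.14 for dBET1), so none is a copy. Intervals cover 95%. Promoters came from RefSeq (GRCh38.p14).

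Named genes are the 10 genes, protein-coding and antisense genes overlapping them and, from each list, up to 5 in each direction with the smallest p past both thresholds. SOCS3-DT, which lies near SOCS3 without overlap, was named as well, and other near neighbours were not. Some marker genes were also named. JAK1, TYK2, STAT5B, EPO, KITLG, GATA1, GATA2, TAL1 and MITF were named after their values were seen. The 10 genes and all lists were chosen with earlier results of these data known. A gene of 1 list is not reported here and was left out of the list counts. Alternatives were DESeq2 1.42.0, its size factors, total counts only, 2 other filters, a replicate block, counts divided by 2, each library left out, the longest transcript as length and another motif spacing. The fits were checked on simulated data.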

Additional observations from a re-analysis of the deposited data

How the results depend on the processing

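The calls of KIT, CISH, SOCS1, SOCS2 and SOCS3 by the adjusted p held under every alternative run. Their log2 fold changes ran from -3.08 to -2.13 for KIT, 0.53 to 0.79 for CISH, 0.61 to 1.12 for SOCS1, 0.54 to 0.80 for SOCS2 and 1.53 to 1.86 for SOCS3. DESeq2, its size factors, no count filter and counts divided by 2 kept all 22 results on their side of the threshold, with counts of calls within 1.5 times.

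With total counts only, PIM1 was at -0.068 and no longer passed, PIM2 and PIM3 changed sign to 0.042 and 0.040, 2 of the 10 genes were higher past both thresholds (SOCS1 and SOCS3), and 1 was lower by the adjusted p. Of the list genes, 18 in place of 29 were then lower by the adjusted p. Of all genes, 3852 were higher and 952 lower past both thresholds, against 3032 and 1535. With at least 10 counts in every library, 1940 genes were higher. With 4 bases between the TTC and GAA parts, 0 promoters of the 10 genes held the STAT motif, against 1.

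With each library left out, the lone library of its group was assumed to vary like the other pair, so passing or failing there also reflects which pair gave the spread. In these fits log2 fold changes ran from -0.52 to -0.23 for EPOR, -0.035 to 0.20 for JAK2 (negative without DMSO replicate 2), -0.32 to -0.29 for PIM1, -0.22 to -0.14 for PIM2 and -0.27 to -0.13 for PIM3. Of the 10 genes, 1 to 2 were then higher past both thresholds and 1 to 5 lower by the adjusted p, with 5 (KIT, EPOR and the PIM genes) without DMSO replicate 1. Over all genes, 3356 to 5118 were higher by the adjusted p, against 5038, with the fewest without dBET1 replicate 2.

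The replicate numbers did not pair the samples (correlation of deviations -0.0075). With the replicate number as a block, KIT was at -2.59 and SOCS3 at 1.65, 2945 genes were higher and 1530 lower past both thresholds, and no call of the 10 genes changed. SDs rest on 2 values. With 27 to 30 counts of KIT per dBET1 library, counting error limits its level there.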

Other observations

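Markers of other blood lineages were also counted. Over all genes, 28.0% rose and 27.6% fell by the adjusted p, and 16.9% rose and 8.54% fell past both thresholds. The summed CPM of the megakaryocyte list was 3.43 and 4.13 with DMSO and 6.90 and 7.80 with dBET1, and 2 of its 5 genes were tested and rose by the adjusted p. The mast cell list, of interest because mast cells carry KIT, was almost at 0. TPSAB1 and CPA3 had 0 counts in the 4 libraries, MS4A2 had 6 and 5 counts with DMSO and 2 and 9 with dBET1, and HDC had 31 and 34 counts with DMSO and 8 and 14 with dBET1. The monocyte markers were mixed, with 3 of 4 higher past both thresholds, namely CD14 (log2 fold change 1.23), CSF1R (2.01) and ITGAM (3.39). All were low with DMSO, at 18 and 14 counts of CD14, 3 and 4 of CSF1R and 22 and 9 of ITGAM. CSF1R entered the test only through its dBET1 counts, so the count of 3 of 4 is not independent of the count filter. The fourth, CD68, fell (-1.46) and held most of the summed level of 17.9 and 23.6 CPM with DMSO and 13.0 and 15.3 CPM with dBET1. The T cell list, mainly CD3D and CD3G, which both fell, summed to 35.3 and 40.8 CPM with DMSO and to 13.6 and 12.5 CPM with dBET1. The B cell list stayed between 1.87 and 2.46 CPM, and none of its 2 tested genes passed.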
